A study of Xenopus laevis with 5 samples.

Results

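The genes described here are itgb1, dag1, ext1 and ndst1, which encode receptors for the extracellular matrix and enzymes that build heparan sulphate, measured in ectodermal explants of the frog Xenopus laevis. The members are 5 homeologs, itgb1.L, itgb1.S, dag1.L, ext1.L and ndst1.S, read by 6 probe sets, of 7531 named genes and 15491 probe sets on the array. Many genes of this frog exist as an L and an S version after an ancient genome doubling; these are its homeologs, and their probe sets may cross-bind. Because the members were picked with the contrast below already known, their values are a description and were not tested. The platform annotation gives 4 further probe sets to the same genes, 2 for ext1.S, 1 for dag1.S and 1 for dag1.L and dag1.S together, and these are reported as well.

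Affymetrix arrays were used, 1 per sample, for 5 samples. In 2 samples the embryos had received synthetic RNA for ICD and for FoxJ1 at the 2-cell stage, and in 3 samples RNA for ICD alone, so that every sample carried ICD. Prospective ectoderm was removed at stage 9 to 10 and kept on fibronectin-coated glass until RNA was taken at stage 22. ICD commonly stands for Notch's intracellular domain, which the labels leave unsaid, and FoxJ1 is a forkhead transcription factor that regulates motile cilia. RNA doses, the number of explants per sample and uninjected explants were not part of the data used here, and the labels do not say whether replicates were separate embryo batches. The p-values therefore cover just the spread among these samples, and that spread may be technical. The comparison asks how transcripts of the matrix receptors and of heparan sulphate synthesis differ when FoxJ1 is added to ICD.

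Integrin beta 1 pairs with one of several alpha subunits, and with alpha 5 it forms the main fibronectin receptor of early frog ectoderm. Dystroglycan, the product of dag1, is cut into a membrane subunit and an outer subunit, and the outer subunit binds laminins through a sugar chain on O-linked mannose. Heparan sulphate is polymerised in the Golgi by a complex of Ext1 and Ext2, and Ndst1 then replaces acetyl groups of the growing chain by sulphate, the first step of its modification. The finished chains sit on syndecans, glypicans and basement membrane proteoglycans, where they bind matrix proteins and growth factors.

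Each array gave 1 MAS5 signal per probe set in arbitrary units, scaled to a common mean, and differences are given on the scale of log2(signal + 16) as ICD+FoxJ1 minus ICD, which understates the change of dim probe sets. The background level, taken as the highest of 20 control probe sets for foreign sequences, was 16.9 to 25.3 on the ICD+FoxJ1 arrays and 20 to 28.4 on the ICD arrays. The arrays fell into a pair of sets by the median signal of their poly-A control transcripts. It was 318 to 368 on ICD+FoxJ1 replicate 1 and ICD replicates 1 and 2, and 1.90 to 2.95 on ICD+FoxJ1 replicate 2 and ICD replicate 3. These sets are called labelling batches here, an inference from the controls, since the labels name no batch. The 3′ to 5′ signal ratio of the Gapd controls, a sign of RNA integrity, was 2.76 and 3.87 on the ICD+FoxJ1 arrays, against 2.75, 3.80 and 2.80 on the ICD arrays.

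The RNA for integrin beta 1 was lower with FoxJ1 from both gene copies. For itgb1.L the signal was 357.7 and 418.3 on the ICD+FoxJ1 arrays, against 1385.8, 1258.3 and 1323.2 on the ICD arrays. The groups were far apart, and the ICD arrays lay close together, with the highest exceeding the lowest by a ratio of only 1.10. The log2 difference was -1.73, from means of 388.0 ± 42.9 (SD, n = 2) with ICD+FoxJ1 and 1322 ± 63.8 (SD, n = 3) with ICD. For itgb1.S the signal was 368.3 and 319.1 on the ICD+FoxJ1 arrays and 1257.3, 1425.6 and 1596.3 on the ICD arrays, a log2 difference of -2.0. Again every ICD+FoxJ1 array lay below every ICD array. The second probe set of itgb1.L had signals of 44.7 and 39.6 with ICD+FoxJ1, against 62.9, 107.8 and 118.5 with ICD. These groups did not overlap either, although the log2 difference was smaller, at -0.91, and ICD replicate 1 lay nearest to the ICD+FoxJ1 arrays.

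Dystroglycan RNA was also lower with FoxJ1, with more spread between arrays. The signal of dag1.L was 153.6 and 64.6 on the ICD+FoxJ1 arrays, against 368.5, 620.2 and 519.8 on the ICD arrays. The groups did not overlap, but the 2 ICD+FoxJ1 arrays differed from each other by a ratio of 2.38. The log2 difference was -2.12, from means of 109.1 ± 62.9 (SD, n = 2) with ICD+FoxJ1 and 502.8 ± 126.7 (SD, n = 3) with ICD. The probe set annotated to both copies showed 112.4 and 49.6 with ICD+FoxJ1 and 133.5, 238.0 and 180.7 with ICD. It had the same order of arrays as dag1.L and a log2 difference of -1.09, which was -1.58 without ICD+FoxJ1 replicate 1 and -0.61 without ICD+FoxJ1 replicate 2. The probe set of dag1.S was at or below background on both ICD+FoxJ1 arrays, at 7.3 and 8.6, and above it on only 1 of the 3 ICD arrays, whose signals were 11.0, 18.8 and 41.2. No fold is given for dag1.S.

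Among enzymes of heparan sulphate synthesis, the L copy of ext1 differed and the measured S copy did not separate the groups. The signal of ext1.L was 53.8 and 36.1 on the ICD+FoxJ1 arrays, against 362.0, 196.0 and 269.1 on the ICD arrays. The groups did not overlap, and the log2 difference of -2.23 was the most negative of the listed members. The means were 44.95 ± 12.5 (SD, n = 2) with ICD+FoxJ1 and 275.7 ± 83.2 (SD, n = 3) with ICD. The first probe set of ext1.S had signals of 82.2 and 90.1 with ICD+FoxJ1, against 78.1, 88.3 and 113.1 with ICD. All 5 values were above background, the groups overlapped, and the log2 difference was -0.08. The second probe set of ext1.S was at background on both ICD+FoxJ1 arrays, at 1.1 and 21.7, and its ICD signals of 10.2, 42.9 and 59.9 overlapped with them, with 2 of the 3 above background. With its ICD+FoxJ1 values raised to the background level, its mean on the log scale was 1.44-fold lower with ICD+FoxJ1. This fold is no strict bound, since ICD replicate 1, at 10.2, was itself below the background level of 28.4 on that array. It concerns the means and not each array, and it ranged from 1.01 without ICD replicate 3 to 2.45 without ICD replicate 1.

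For ndst1.S, the sulphotransferase gene, the signal was 212.8 and 185.1 on the ICD+FoxJ1 arrays, against 608.3, 808.2 and 1174.8 on the ICD arrays. Both ICD+FoxJ1 arrays lay below all ICD arrays, and the ICD arrays spread by a ratio of 1.93. The log2 difference was -1.99, from means of 198.95 ± 19.6 (SD, n = 2) with ICD+FoxJ1 and 863.8 ± 287.3 (SD, n = 3) with ICD. The table held no second probe set under this gene's name.

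**Figure D1:**
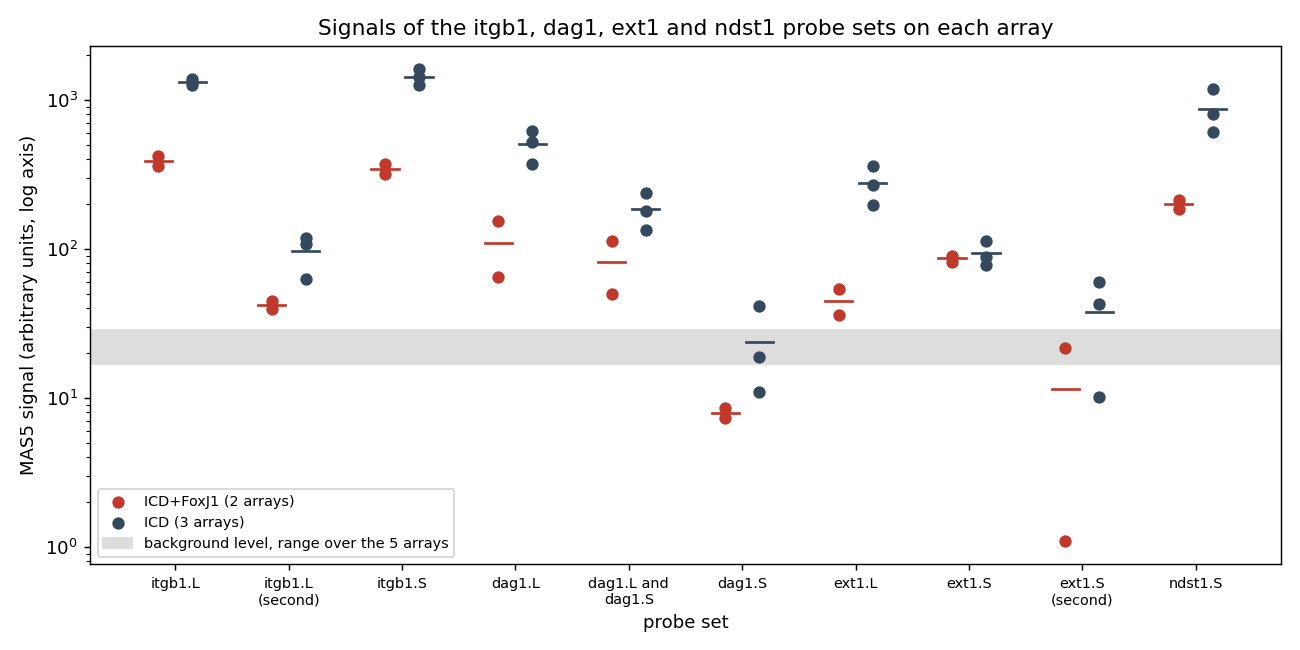
MAS5 signal (log axis, arbitrary units) of the 10 probe sets of itgb1, dag1, ext1 and ndst1, with a point per array, a line at the mean, ICD+FoxJ1 on the left of each pair and ICD on the right; the grey band is the range of the background level. The ICD+FoxJ1 points lie below all ICD points except in both ext1.S probe sets, and dag1.S is near background.

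In limma's fit of all 11618 probe sets left after the dimmest 25% were taken out, 5 of the 6 listed probe sets passed the adjusted threshold of 0.05 as lower, where 2.99% of all probe sets did. The exception was the second probe set of itgb1.L. All 6 listed probe sets, and 7 of the 9 tested probe sets of these genes, had every ICD+FoxJ1 array below every ICD array, as did 23.0% of all probe sets tested. Since the choice of members used this contrast, these counts describe the choice. Leaving out any 1 array kept all 6 log2 differences negative, between -2.66 and -0.77. Without either ICD+FoxJ1 array, fewer of the listed probe sets passed, as did far fewer of all probe sets. By the size of the log2 difference, ext1.L stood at rank 42 from the most negative, dag1.L at 51 and itgb1.S at 61. Ndst1.S stood at 63 and the first probe set of itgb1.L at 98. The probe set annotated to both dag1 copies stood at 426 and the second of itgb1.L at 670. The first probe set of ext1.S stood at 5178, and its second, at background on both ICD+FoxJ1 arrays, at 609. In bulk RNA, fewer cells of a type and less RNA per cell cannot be told apart.

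The order of the ICD arrays differed between the listed probe sets. Itgb1.S, dag1.L, ndst1.S and the second probe set of itgb1.L were lowest on ICD replicate 1. Ext1.L and the first probe set of itgb1.L were highest there, the latter with ICD arrays that spread by a ratio of only 1.10. Over all tested probe sets, 42.2% were lowest and 35.5% highest on that array, so either order was common. The labelling batch with poly-A signal holds ICD+FoxJ1 replicate 1 and ICD replicates 1 and 2. Within it, the log2 differences were -1.84 for the first probe set of itgb1.L, -0.70 for its second and -1.82 for itgb1.S. They were -1.54 for dag1.L, -2.02 for ext1.L and -1.65 for ndst1.S. Within the other batch, with 1 array per group, they were -1.62 for the first probe set of itgb1.L, -1.27 for its second and -2.27 for itgb1.S. There, dag1.L was at -2.73, ext1.L at -2.45 and ndst1.S at -2.57. Thus all listed probe sets were negative in each batch, and dag1.L and ndst1.S differed by about 1 log2 unit between the batches. The first probe set of ext1.S was at -0.01 and -0.28 in these batches.

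**Figure D2:**
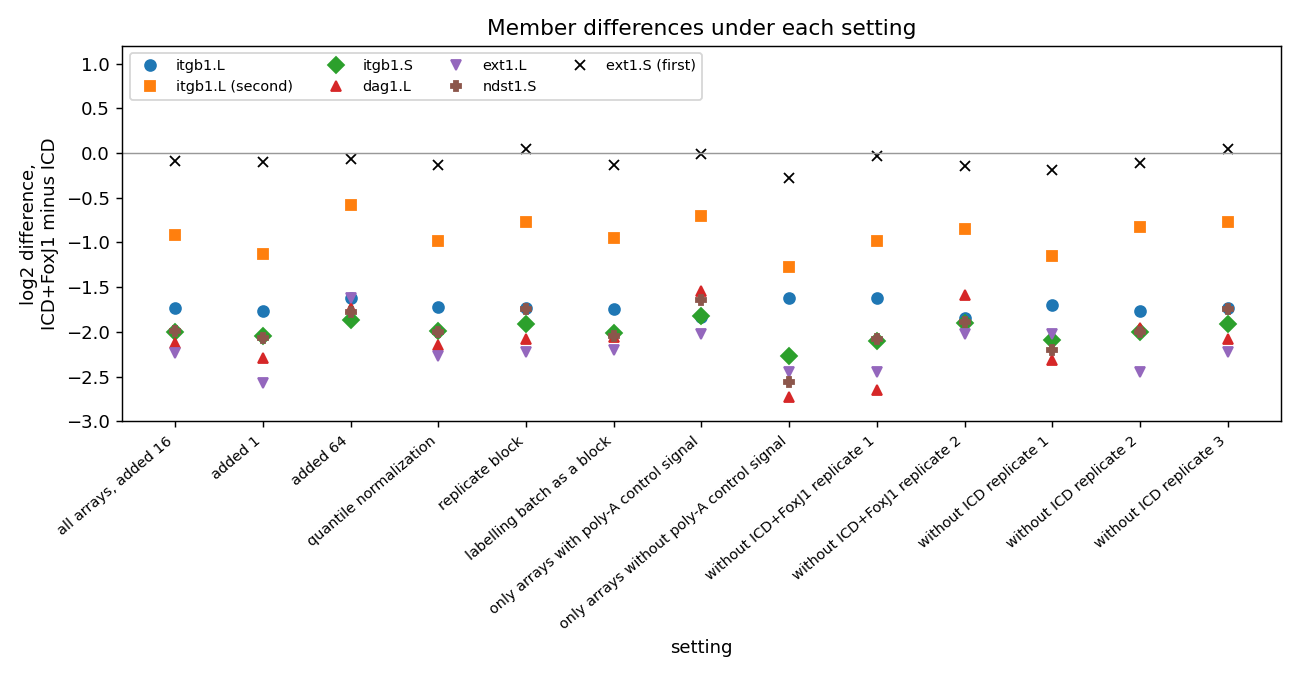
Log2 difference, ICD+FoxJ1 minus ICD, of the 6 listed probe sets and of the first probe set of ext1.S under each setting of the processing, with a symbol per probe set. The listed probe sets stay below 0 in all 13 settings shown, between -2.73 and -0.58, and ext1.S lies between -0.28 and 0.04.

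Other genes of the same pathways were taken from 7 lists that leave out the members, with each gene represented by its brightest tested probe set. The L and S copies of a gene were counted as separate genes, although their calls may not be independent. In the fit of all probe sets, 7.47% passed in either direction (4.48% higher and 2.99% lower), and their median log2 difference was -0.03. Of 6 other integrin subunit genes tested, 0 rose, 1 fell and 5 did not pass, with a median log2 difference of -0.44. The gene that fell was itga3.L, a partner of integrin beta 1 in laminin receptors, with 72.4 and 118.8 on the ICD+FoxJ1 arrays and 254.1, 271.7 and 349.4 on the ICD arrays (log2 difference -1.48, SE 0.28, limma adjusted p = 0.0208). This call was lost without ICD replicate 3, ICD+FoxJ1 replicate 1 or ICD+FoxJ1 replicate 2 (limma adjusted p = 0.0614, 0.205 and 0.0716).

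The fibronectin partner itga5.L was read by 2 probe sets, both with a negative difference, of which only 1 passed. The brighter of them had 83.6 and 113.6 with ICD+FoxJ1 and 164.3, 172.7 and 112.7 with ICD, and at -0.53 it did not pass (SE 0.27, limma adjusted p = 0.285). The other had 55.1 and 53.9 with ICD+FoxJ1, against 105.9, 131.9 and 164.6 with ICD, and fell by 1.07 (SE 0.25, limma adjusted p = 0.0457). That call was lost without any single array other than ICD replicate 1, with limma adjusted p-values up to 0.268. It also ended with a block for the labelling batch (0.0658), without the filter on dim probe sets (0.0653) and with 64 added to the signal (0.0525). Itgav.L, itga6.L, itgb3.L and itgb5.L, further integrin subunit genes, differed by -0.53, -0.36, -0.29 and 0.24 and did not pass. Of the 14 other integrin subunit genes on the array, 7 were at or below background on all 5 arrays by their brightest probe set.

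Of 29 genes for proteins at integrin adhesion sites, 0 rose, 5 fell and 24 did not pass, and 23 of the 29 differences were negative, with a median of -0.60, where 51.9% of all probe sets tested were negative. Both copies of src, a tyrosine kinase active at adhesions, fell. Src.S had 102.6 and 156.7 with ICD+FoxJ1 and 392.6, 572.0 and 981.1 with ICD, and fell by 2.12 (SE 0.39, limma adjusted p = 0.0180). Src.L fell by 1.54 (SE 0.24, limma adjusted p = 0.00935). Actn1.S, an alpha-actinin that links integrins to actin, had 754.2 and 647.6 with ICD+FoxJ1 and 1710.1, 2049.5 and 1740.2 with ICD, and fell by 1.37. Cd81.S, a tetraspanin that associates with integrins, fell by 1.39, and fermt1.S, a kindlin that activates integrins and the fifth gene to pass, fell by 1.78. Ilk.S, the integrin-linked kinase, differed by -0.48 (SE 0.23, limma adjusted p = 0.238). The beta actin control probe set at the 3′ end read 228.2 and 261.1 on the ICD+FoxJ1 arrays and 524.6 to 871.0 on the ICD arrays, and the control at the 5′ end read 1114.8 and 2133.6 on the ICD+FoxJ1 arrays and 2143.1 to 4817.4 on the ICD arrays. The groups overlapped in the control from the middle of the transcript, and the part of actin RNA in these differences was not tested. Without ICD replicate 1, 9 genes of the list passed as lower, where 5.57% of all probe sets did. Leaving out either ICD+FoxJ1 array ended every call in this list, including those of both src copies, actn1.S, cd81.S and fermt1.S. Over all probe sets, fewer passed as well. With any 1 array left out, the difference stayed between -2.42 and -1.78 for src.S and between -1.72 and -1.37 for src.L. It stayed between -1.47 and -1.26 for actn1.S and between -1.45 and -1.35 for cd81.S.

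Of 14 genes of the dystroglycan complex and of its O-mannose sugar chain, 0 rose, 1 fell and 13 did not pass, with a median of 0.04. Large2.S, a glycosyltransferase that extends the laminin-binding chain, had 90.8 and 85.4 with ICD+FoxJ1 and 211.0, 209.1 and 201.8 with ICD, and fell by 1.10 (SE 0.22, limma adjusted p = 0.0252). Leaving out any array other than ICD replicate 1 ended this call, as did a block for the labelling batch, and a second probe set of large2.S had overlapping groups. Gmppa.L, gmppb.L and gmppb.S, which act in the supply of GDP-mannose, differed by 0.86, 0.67 and 0.69 and did not pass, although their ICD+FoxJ1 arrays lay above all ICD arrays, as in 21.2% of all probe sets tested. The dystrophin gene dmd.1.L and the utrophin gene utrn.S, whose proteins tie dystroglycan to actin, differed by 0.07 and 0.06. Both were near background, which limits what these differences can show. Dmd.1.L was above it on 2 of 2 ICD+FoxJ1 and 1 of 3 ICD arrays, and utrn.S on 1 of 2 and 1 of 3.

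Of 15 other genes for heparan sulphate synthesis and trimming, 0 passed limma's threshold in either direction, 3 had an unadjusted p under 0.05, and the median difference was 0.15. Of all probe sets tested, 24.7% had an unadjusted p under 0.05. Ext2.L, the polymerase partner of Ext1, had 131.8 and 59.8 on the ICD+FoxJ1 arrays and 51.9, 64.8 and 47.7 on the ICD arrays, so that its log2 difference was 0.59 (SE 0.32) and did not pass (limma adjusted p = 0.304). Without ICD+FoxJ1 replicate 1 it was 0.11, and without ICD+FoxJ1 replicate 2 it was 1.07. Ext2.S differed by 0.24 (SE 0.27, limma adjusted p = 0.629), and its second probe set by 0.03. The smallest p was that of slc35b3, a transporter that brings the sulphate donor into the Golgi, with 515.8 and 555.5 with ICD+FoxJ1 and 238.4, 315.9 and 283.8 with ICD (log2 difference 0.91, SE 0.22, limma adjusted p = 0.0523). Extl3.S, which encodes an enzyme that starts the chain, differed by -0.57 (SE 0.23, limma adjusted p = 0.173) and extl3.L by -0.60. The copies of ugdh, which makes the UDP-glucuronic acid used for these chains, differed in opposite directions, ugdh.S by 0.80 and ugdh.L by -0.91, and neither passed. Hs2st1.L, a 2-O-sulphotransferase gene, was among the dimmest probe sets and was not tested.

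Of 10 genes for heparan sulphate proteoglycans and proteins that bind them, 0 rose, 3 fell and 7 did not pass, with a median of -0.63. Both copies of col18a1, the core of a basement membrane proteoglycan, fell, with log2 differences of -2.82 for col18a1.L and -2.83 for col18a1.S (SE 0.25 and 0.24, limma adjusted p = 0.00131 for both). Sdc2.L, a syndecan, had 193.8 and 202.5 with ICD+FoxJ1 and 404.2, 457.6 and 351.4 with ICD, and fell by 0.97 (SE 0.22, limma adjusted p = 0.0433). Gpc4.L, a glypican, had 373.3 and 566.1 with ICD+FoxJ1, against 652.8, 1132.8 and 1529.7 with ICD, and at -1.15 it did not pass (SE 0.37, limma adjusted p = 0.108). A second probe set of gpc4.L differed by -0.49, with overlapping groups. Sdc4.L and sdc4.S encode a syndecan of adhesion sites. The probe sets of sdc4.L differed by -0.49, -0.26 and 0.05 and that of sdc4.S by 0.31, and the groups overlapped on each. The sdc2.L call ended with a block for the labelling batch (limma adjusted p = 0.0762), without the filter (0.0545) and without any array other than ICD replicate 1 (0.0738 to 0.272). Without ICD replicate 1, 5 genes of this list passed as lower, where 5.57% of all probe sets did.

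Of 5 matrix ligand genes tested, 1 rose, 1 fell and 3 did not pass, with a median of -0.36. Fn1.S, fibronectin, the protein that also coated the glass, was read by 4 probe sets. The brightest had 1703.0 and 2278.2 with ICD+FoxJ1 and 3223.7, 3657.4 and 4751.3 with ICD, and fell by 0.95 (SE 0.23, limma adjusted p = 0.0483). Another had 302.7 and 275.2 with ICD+FoxJ1, against 703.2, 696.0 and 721.4 with ICD, and fell by 1.25 (SE 0.20, limma adjusted p = 0.0111). The remaining 2 probe sets differed by -1.35 and -1.30 and did not pass (limma adjusted p = 0.0871 and 0.0963). On all 4 probe sets the groups did not overlap. Fbln1.L, fibulin 1, rose by 1.27 (SE 0.29, limma adjusted p = 0.0415), with 67.4 and 116.7 with ICD+FoxJ1 and 18.7, 30.5 and 35.9 with ICD. Leaving out any array other than ICD replicate 1 ended the calls of fbln1.L and of the brightest fn1.S probe set, and leaving out either ICD+FoxJ1 array ended that of the other fn1.S probe set. A block for the labelling batch ended the fbln1.L call (limma adjusted p = 0.0560). Of 3 genes for chondroitin sulphate synthesis, a related sugar chain, 0 passed limma's threshold, with a median of -0.31.

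**Figure D3:**
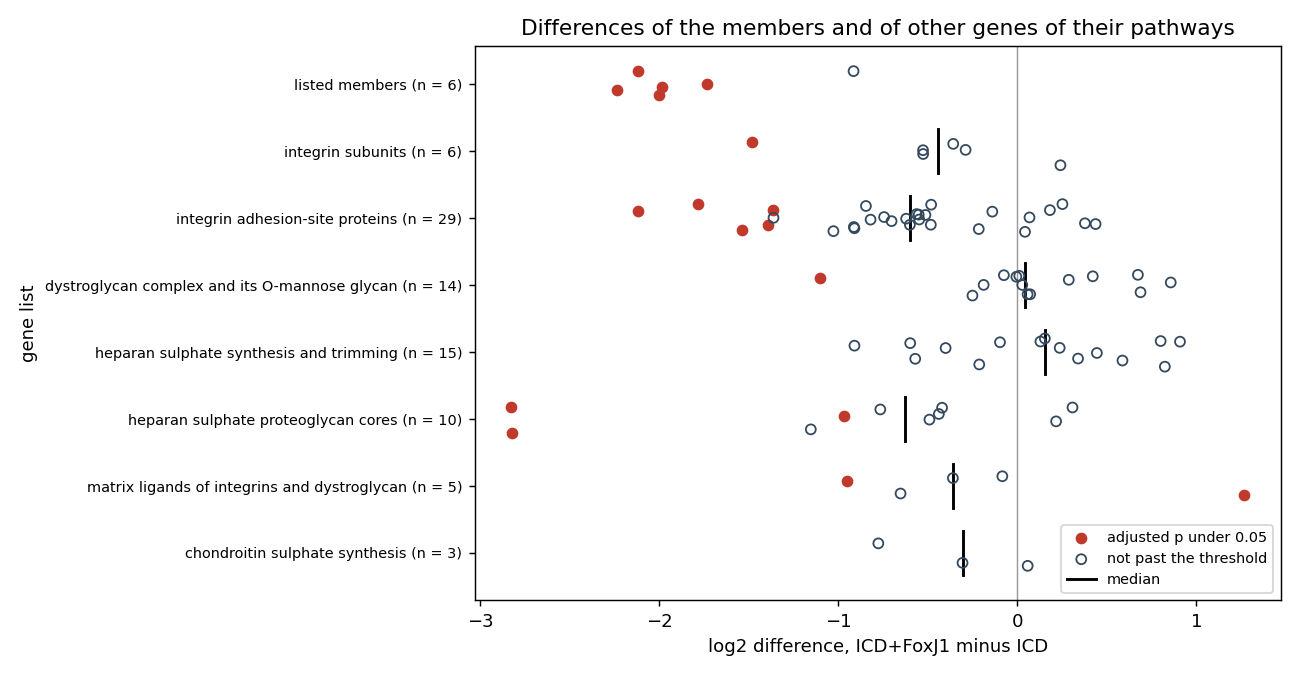
Log2 difference, ICD+FoxJ1 minus ICD, of the 6 listed probe sets and of the tested genes of 7 pathway lists, a point per gene, filled where limma's adjusted p was under 0.05, with a line at the median of each list. Filled points lie left of 0 except fbln1.L at 1.27, and the heparan sulphate synthesis list has no filled point. The listed probe sets were chosen with this contrast known, so their filling is a description and no test.

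The copies of a gene could be compared directly where both had a tested probe set, each copy by its brightest. This comparison was added after the values had been seen. Over all 799 such homeolog pairs, the log2 difference between the L and the S copy changed between the groups in 15, or 1.88% (limma, adjusted over all pairs), and 133 had an unadjusted p under 0.05. For itgb1 the copies differed alike, by -1.73 in L and -2.0 in S. For ext1 they stood apart, at -2.23 in L and -0.08 in S, a description with no test because ext1.L was chosen on this contrast. The dimmer second probe set of ext1.S, at background on both ICD+FoxJ1 arrays, differed by -0.95 with overlapping groups, so the probe sets of ext1.S disagree. Of 16 pairs in the lists, 1 passed: cd81.L differed by 0.25 and cd81.S by -1.39, with a shift of 1.64 in L minus S (SE 0.25, limma adjusted p = 0.0307). A block for the labelling batch ended that call (limma adjusted p = 0.0528), as did leaving out any array other than ICD replicate 1 (adjusted p from 0.0617 to 0.439). In large2, the shift was 1.10 (SE 0.25, limma adjusted p = 0.0672), and in ugdh it was -1.71 (SE 0.43, limma adjusted p = 0.0803). In col18a1, where both copies fell, the shift was 0.00 (SE 0.24).

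**Figure D4:**
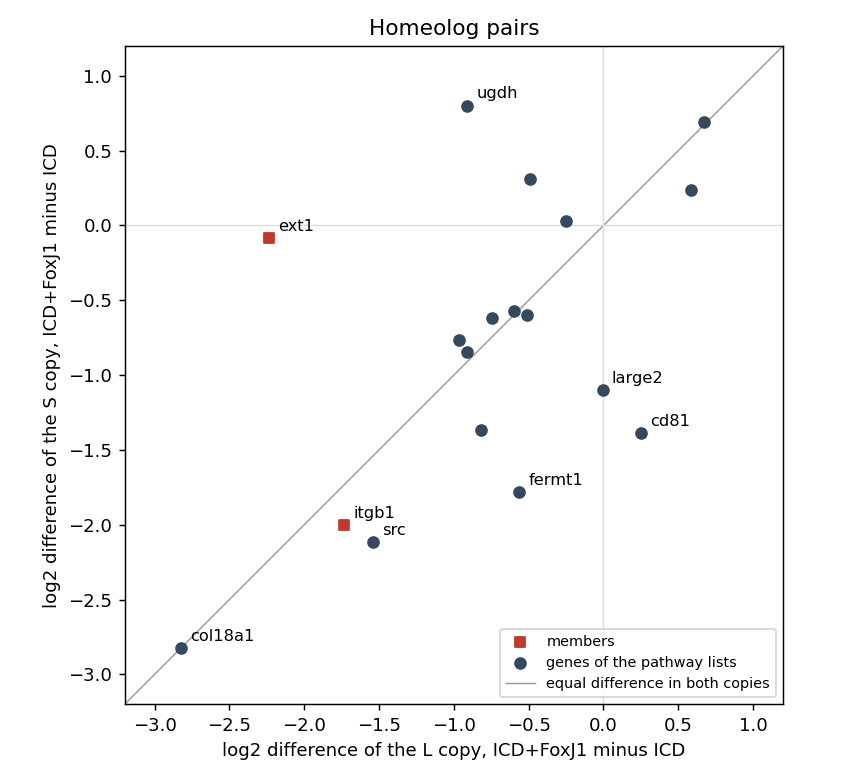
Log2 difference, ICD+FoxJ1 minus ICD, of the L copy (x axis) against that of the S copy (y axis) for the 18 homeolog pairs of the members and lists, with a line where both are equal. Each copy is shown by its brightest tested probe set. Itgb1 and col18a1 lie near the line, and ext1, cd81, ugdh and large2 lie away from it.

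The named genes whose array profiles were nearest to each member were found over the 5 arrays. The distance was the root mean square difference of log2(signal + 16), each profile centred on its own mean. This is a description, and a small value means that a gene's arrays moved by nearly the same amounts on that scale. Because the scale understates the change of dim probe sets, ratios of the signals themselves can differ more. Nearest to itgb1.L was tp63.L, a p53-family regulator of basal epidermis, at 0.08, with signals of 26.3 and 36.2 with ICD+FoxJ1 and 145.5, 150.6 and 151.3 with ICD. The ratio of mean signals, ICD over ICD+FoxJ1, was 4.77 for tp63.L and 3.41 for the first probe set of itgb1.L. After tp63.L came pimreg.L at 0.10 and jag1.L, a Notch ligand gene, at 0.13. Nearest to itgb1.S were cyp27c1.S, gal3st4.5.S and parp1.L, at 0.11, 0.13 and 0.14. Of these, gal3st4.5.S was at background on both ICD+FoxJ1 arrays, at 6.3 and 1.5. Dag1.L lay nearest to fkbp9.S, a protein-folding gene of the endoplasmic reticulum, at 0.13, then to cbfa2t2.S at 0.20 and shisa1.1.L at 0.21. Ext1.L lay nearest to rcn3.L at 0.19, parp1.L at 0.25 and gatm.L at 0.27, so its closest neighbour was farther than that of any other member. Ndst1.S lay nearest to another probe set of src.S at 0.08, then to gli3.L, a Hedgehog transcription factor gene, at 0.17 and to cyp27c1.S at 0.17. The gli3.L signals with ICD+FoxJ1, 15.6 and 11.9, were at background. Among the members themselves, itgb1.S and ndst1.S were closest, at 0.19, and dag1.L and ext1.L were farthest apart, at 0.54.

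Markers of the cell types that explants can hold were read on the same arrays. Of 18 tested multiciliated cell genes 15 rose and 0 fell, and the summed signal of the 19 on the array was 31927.5 and 38647.5 with ICD+FoxJ1 and 3609.6 to 8748.6 with ICD. Of 23 genes of epidermis and secretory skin cells 0 rose and 5 fell, with sums of 57936.4 and 71130.2 with ICD+FoxJ1 and 64430.7 to 84088.7 with ICD. Tp63.L and krt19.L were among those that fell, with log2 differences of -1.81 and -1.96. Over the 23 genes the median was 0.03, and 11 of the differences were negative. Of 8 ionocyte genes 2 rose and 2 fell, with sums of 1248.4 and 1070.1 with ICD+FoxJ1 and 1060.7 to 1188.7 with ICD. Of 12 neural and neural crest genes 1 rose and 4 fell, with sums of 1335.5 and 1287.0 with ICD+FoxJ1 and 1242.2 to 2024.7 with ICD. Of 27 mesoderm and muscle genes on the array 12 were at background on all arrays, and 1 rose and 1 fell of 8 tested, with sums of 1037.1 and 1163.2 with ICD+FoxJ1 and 1242.1 to 1403.6 with ICD. Of 15 endoderm genes 13 were at background on all arrays, and the sums were 561.8 and 1064.5 with ICD+FoxJ1 and 750.4 to 1568.1 with ICD. The part of these cell types in the member differences was not tested.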

How the data were processed

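The table deposited by the authors holds 1 signal intensity per probe set and array, made, per the submitters' processing notes, with MAS5, whose version is not given in the sources used here. All arrays share a trimmed mean of 200.02 to 200.03 (2% cut at either end), so scaling preceded deposit. Between 65.3% and 77.3% of probe sets exceeded the background level of their array, and the number of arrays limits the precision. Of 15611 probe sets, 120 controls were left out. GEO's platform annotation gave 1 gene symbol to 9304 probe sets, several to 195 and none to 6112, and gene identifiers of 9227 were found in the RefSeq table of Xenopus_laevis_v10.1, used for names only.

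Probe sets in the dimmest 25% by mean log2(signal + 16) were dropped, and 11618 stayed. The groups were compared with limma 3.58.1 in R 4.3.3 (lmFit, then eBayes with a variance trend), in a two-sided test whose p-values were adjusted by Benjamini-Hochberg over these 11618 (threshold 0.05). The members, the gene lists and the alternatives were chosen with earlier results of these data known. Named genes are all probe sets of the members, 23 fixed partner genes where present, up to 4 genes per list by smallest p, and the 3 nearest profiles per member; other names were chosen after their values were seen. Where a probe set was at or below background on every array of the dimmer group, those values were raised to background for a fold. Such a fold is a bound only where every array of the brighter group was above background. The test was also run on 20 simulated data sets with the group sizes of this comparison and 11618 probe sets. It found 15.3% of the changes of 2-fold, 88.2% of those of 4-fold and 98.9% of those of 16-fold, with 5.15% of its calls false. The simulated noise was independent between probe sets, had a spread unrelated to the mean signal and held no labelling batch. Each simulated set also held fewer changed probe sets than passed in the real data, and its folds were set on the scale of log2(signal + 16). The shares found may therefore differ in the real data. Matplotlib 3.10.9 drew the figures. Alternatives were another added constant (1 or 64), no filter, quantile normalization, no variance trend, a replicate or labelling block, a single labelling batch, the mean of a gene's probe sets, and each array left out.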

Additional observations from a re-analysis of the deposited data

How the results depend on the processing

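Log2 differences of the listed members kept their sign under all alternatives run. The first probe set of ext1.S, which did not separate the groups, ranged from -0.28 to 0.04, and no difference that passed the threshold changed sign. Members were not tested, so the counts that passed describe the fits. The replicate numbers are shared by the groups without a stated pairing. Deviations of same-numbered arrays from their group means correlated at -0.06 and -0.32. With 2 ICD+FoxJ1 arrays, the deviations of 1 mirror those of the other, so these values cannot show whether replicates were paired. No ICD+FoxJ1 array shares the number of ICD replicate 3, so a block by replicate number leaves that array out of the group difference. With the replicate number as a block, 243 probe sets rose and 73 fell (521 and 347 without it), 4 of the 6 listed probe sets passed, as did 0 integrin subunit, 1 adhesion-site, 0 dystroglycan and 0 ligand genes and 26 homeolog pairs. With the labelling batch as a block, 212 probe sets fell, and 0 dystroglycan genes, 1 ligand gene (fn1.S) and 5 homeolog pairs passed. On the arrays with poly-A signal alone, 166 rose and 23 fell; 0 listed probe sets, 0 integrin subunit, 0 adhesion-site, 0 dystroglycan and 0 ligand genes and 0 homeolog pairs passed, with 3 arrays in the fit. There, dag1.L differed by -1.54, itgb1.L by -1.84 and, on its second probe set, -0.70, and itgb1.S by -1.82.

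Between the arrays without poly-A signal, 1 per group, dag1.L differed by -2.73, itgb1.L by -1.62 and, on its second probe set, -1.27, itgb1.S by -2.27, ndst1.S by -2.57 and ext1.S by -0.28. With 64 added to the signal, ext1.L and itgb1.L both differed by -1.62, 1 heparan sulphate synthesis gene (slc35b3) and 35 homeolog pairs passed. With 1 added, 0 ligand genes passed. Without the filter 0 ligand genes passed, and without a variance trend 1 did. With the mean of a gene's probe sets, 0 dystroglycan genes passed. The causes of these changes were not tested.

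With 1 array left out, 116 to 740 probe sets rose and 32 to 647 fell; 2 to 6 listed probe sets, 0 to 1 integrin subunit, 0 to 9 adhesion-site, 0 to 1 dystroglycan, 0 to 1 heparan sulphate synthesis, 2 to 5 proteoglycan and 0 to 2 ligand genes and 0 to 15 homeolog pairs passed. Where this leaves 1 ICD+FoxJ1 array, that array is assumed to vary like the ICD arrays. With 1 array left out, dag1.L ranged from -2.66 to -1.58 and the first probe set of itgb1.L from -1.84 to -1.62. Signals near background limit dag1.S and the second probe set of ext1.S.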
